A study of Mus musculus with 16 samples.

Results

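The transcripts described here are those of 10 mouse genes for matricellular proteins and for matrix products of fibroblasts: Spp1, Sparc, Fn1, Thbs1, Vtn, Tnc, Thbs2, Postn, Fap and Dpt. They were chosen by name, not by any measured value: every non-control probe whose gene name on the array is one of the 10 was taken. This gave 17 probes of 41174, of which 13 passed the filter on dim probes (at least 4 of 16 arrays well above background). All 10 genes had such a probe and were tested among 15399 genes. The samples were B16-BL6 melanomas, a transplantable mouse tumour line that is syngeneic with C57BL/6J, in male C57BL/6J mice aged 8 weeks. There were 4 groups of 4 tumour preparations. The control group had no treatment, the ALA group had 5-aminolevulinic acid at 50 mg/kg given locally, the X-ray group had fractionated irradiation without ALA, and the ALA plus X-ray group had the same local ALA before the fractions. ALA is the precursor from which cells build the photosensitiser protoporphyrin IX and then heme, and the series asks how it alters the response of the tumour to radiotherapy. A bulk tumour RNA holds melanoma and host cells together, so fewer cells of a type and less RNA per cell cannot be told apart. The labels name separate preparations but not separate animals, so p-values measure the spread between these preparations.

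Matricellular proteins are secreted into the matrix but mostly act as signals rather than as load-bearing fibres. They bind integrins and other receptors and change how cells adhere, migrate and respond to growth factors, and they are known for high levels in wounds and in tumour stroma. Fibronectin (Fn1) and vitronectin (Vtn) are adhesive glycoproteins, and osteopontin (Spp1) and the thrombospondins (Thbs1, Thbs2) are ligands of integrins, CD44, CD36 or CD47. SPARC binds collagen, while tenascin C (Tnc), periostin (Postn), dermatopontin (Dpt) and the membrane protease FAP (Fap) are typical products of activated or matrix-forming fibroblasts.

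Expression was measured on 1-colour Agilent mouse arrays, 1 per tumour. A level is the log2 processed signal of a probe minus the array's 75th percentile, so 0 marks the 75th percentile of that array and each unit is a doubling. Levels are compared between arrays and never between genes. The 75th percentile lay between 213 and 521 signal units, 0 spots were saturated, and the share of spots well above background was 44.3% to 53.6%. Only 4 arrays per group limit the precision. Each of 4 slides carried 1 array of every group, and the slide number was the replicate number. Since the groups kept their position on every slide, position and group cannot be told apart. The probes of Spp1, Sparc, Fn1 and Postn were well above background on all 16 arrays, Tnc and Thbs1 on 15, Thbs2 on 12, Vtn on 11, Dpt on 6 and Fap on 5. Of these, 3 of the 6 arrays for Dpt and 3 of the 5 for Fap were ALA plus X-ray arrays.

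Some tumours stood apart in host cell markers, and these values accompany the results. The mean level of 12 fibroblast markers (among them Pdgfra, Col1a1, Dcn and Mmp2) spanned -1.01 to 0.21 in the controls, -1.45 to 0.04 with ALA and -1.27 to 0.25 with X-ray. In ALA plus X-ray it was -0.54 in replicate 1 against 1.21, 0.96 and 2.47 in replicates 2 to 4. The mean of 13 macrophage and monocyte markers spanned -0.34 to 1.08 in the controls, -2.67 to -0.45 with ALA, -2.14 to 1.14 with X-ray, and was 0.68 in ALA plus X-ray replicate 1 against 2.39, 2.36 and 2.85 in the others. The mean of 12 skeletal muscle markers ranged from -4.03 to 3.00 in control, from -4.67 to -2.39 in ALA and from -4.55 to -0.37 in X-ray tumours. It was -4.10 in ALA plus X-ray replicate 1 and 0.14, 4.39 and 0.83 in replicates 2 to 4. All markers of these 3 lists passed the filter on dim probes. The mean of the 5 of 7 adipocyte markers that passed was 2.14 in ALA replicate 2, 1.77 and 1.14 in ALA plus X-ray replicates 2 and 4, and -3.62 to -0.77 on the other 13 arrays, with Lep well above background on no array. The mean of 7 melanocyte markers lay between 5.50 and 5.95 on all arrays, so the markers of the labelled tumour were high on each. Its lowest values were 5.50 and 5.54, in ALA plus X-ray replicates 4 and 2. Single markers moved apart: in ALA plus X-ray against control Tyrp1 rose (0.51, limma adjusted p = 0.0123) and Mitf fell (-0.83, 0.0214). Of all genes, 24.9% changed there. The part of these cell types in the results below was not tested, apart from a fit with the muscle level as a covariate.

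**Figure D1:**
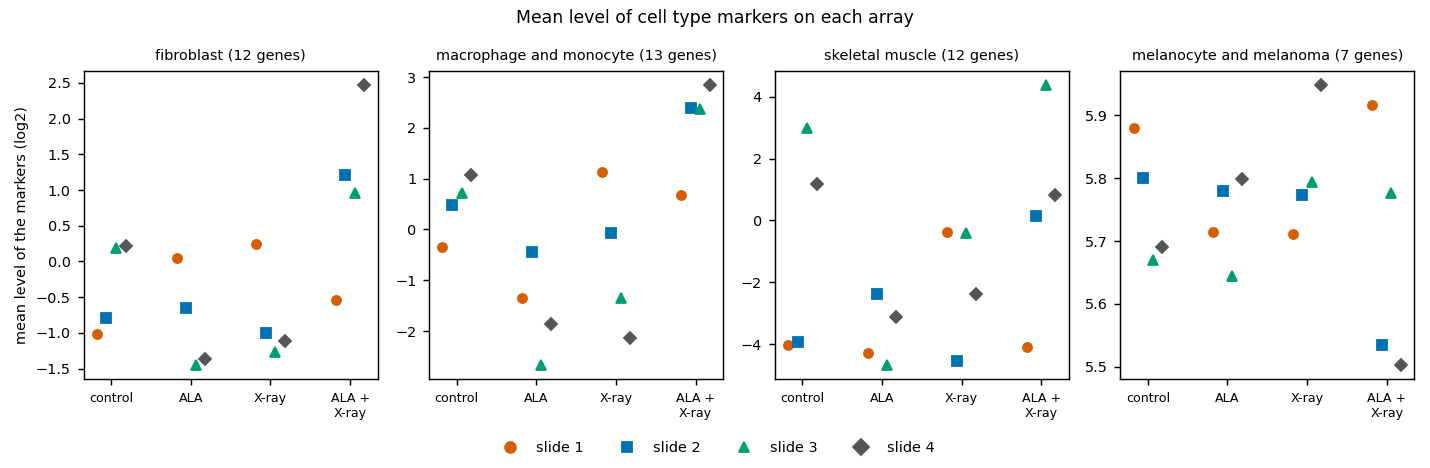
Mean level (log2, array 75th percentile = 0) of the fibroblast, macrophage and monocyte, skeletal muscle and melanocyte markers on each of 16 arrays, by group, with 1 symbol per slide; the vertical axes differ between panels. ALA plus X-ray replicate 1 (slide 1) lies at -0.54 for fibroblast markers, below the 0.96 to 2.47 of the other 3 arrays of its group, while melanocyte markers stay between 5.50 and 5.95.

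Irradiated tumours that had received ALA had the highest mean level of 9 of the 10 genes, the exception being Vtn, which was highest in control tumours. Against control, Sparc, Spp1, Fn1 and Thbs1 rose in ALA plus X-ray tumours (limma, adjusted p under 0.05). That is 4 of 10 genes, where 24.9% of all genes changed and 9.77% rose. Against ALA alone, 6 of 10 rose, Sparc, Spp1, Fap, Dpt, Postn and Thbs2, where 24.1% of all genes changed and 10.7% rose. Fap and Dpt reached the 4 arrays of the filter only through ALA plus X-ray arrays. Counts of rises in that group that include them are thus not independent of the filter. X-ray alone changed 1 of 10, Vtn, which fell, where 3.37% of all genes changed and 1.38% fell. Against X-ray alone, 0 of 10 passed in ALA plus X-ray tumours, where 2.07% of all genes changed and 1.3% rose, although all 10 differences lay above 0. ALA alone changed 0 of 10, as it changed 0 of 15399 genes (0%), with 1 of the 10 and 961 of all genes at an unadjusted p under 0.05. Array weights called 40 genes there and fitting only the 8 arrays compared called 2, none of them a listed gene. Comparisons that share a group are not independent of each other: ALA plus X-ray arrays enter 3 of these comparisons and control arrays 3.

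**Figure D2:**
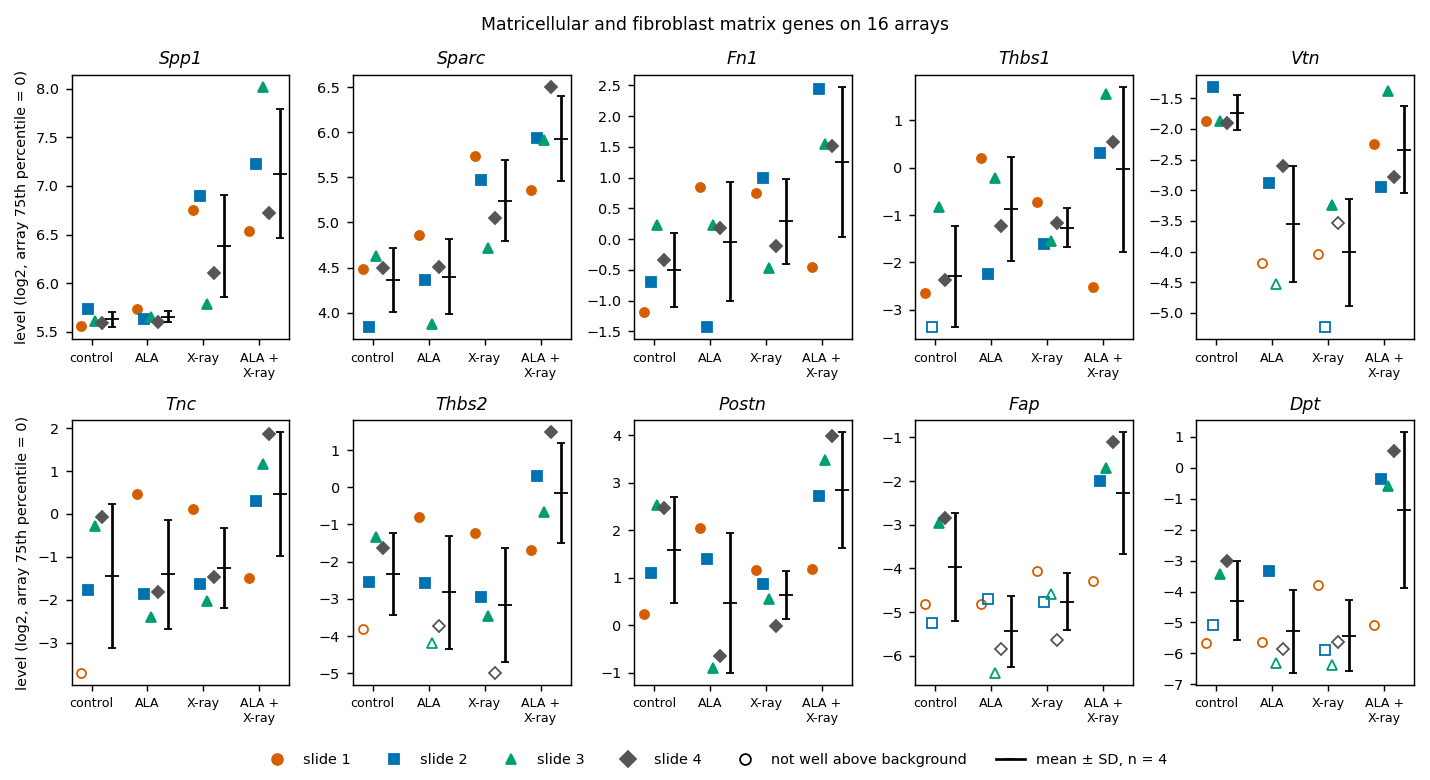
Level (log2, array 75th percentile = 0) of each gene on each of 16 arrays, by group, with 1 symbol per slide, open symbols where the probe was not well above background, and bars for mean ± SD (n = 4); the vertical axes differ between panels. Spp1 is flat in control and ALA tumours (5.56 to 5.74) and higher on every irradiated array, Vtn is highest in control tumours, and Postn, Fap and Dpt are high on 3 of the 4 ALA plus X-ray arrays.

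Spp1, the osteopontin gene, rose in ALA plus X-ray tumours against both unirradiated groups. Osteopontin is an acidic secreted phosphoprotein that binds integrins and CD44 and is made by tumour cells and macrophages. Its probe (chromosome 5, 104869788 to 104869847 in mm9) sits in 10 spots per array, whose log2 values had a median SD of 0.065. The level was 5.56, 5.74, 5.61 and 5.59 in the 4 control tumours and 5.74, 5.63, 5.65 and 5.6 in the 4 ALA tumours, and these groups overlapped. After X-ray it was 6.75, 6.90, 5.79 and 6.10, and after ALA plus X-ray 6.54, 7.22, 8.02 and 6.72. All 8 irradiated tumours were above all 8 unirradiated ones, at the closest 5.79 against 5.74, and the irradiated groups overlapped each other. The share of all genes split in this way was not counted. In X-ray against control, 18.3% of all genes had groups that did not overlap. ALA plus X-ray arrays lay wholly above control for 8.99% of all genes and wholly above ALA for 9.29%. For ALA plus X-ray against control the log2 difference was 1.5 (SE 0.29, 2.83-fold, adjusted p = 0.00506), with slide differences of 0.97, 1.49, 2.41 and 1.13. Against ALA alone it was 1.47 (2.77-fold, adjusted p = 0.00518). X-ray alone gave 0.76 (95% interval 0.15 to 1.37, adjusted p = 0.140), above 0 on each slide, and ALA plus X-ray against X-ray gave 0.74 (0.13 to 1.35, adjusted p = 0.148). Without ALA plus X-ray replicate 1 the last of these passed, at 0.94 (adjusted p = 0.0356). The rise over control held with each of the 16 arrays left out and in 14 of 14 other settings; the rise over ALA missed only with the muscle level as a covariate (1.29, adjusted p = 0.0502).

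Sparc behaved alike on both of its probes. SPARC is a collagen-binding glycoprotein of basement membrane and stroma that both melanoma cells and fibroblasts make. The brighter probe (chromosome 11, 55209449 to 55212106 in mm9, across an intron) had levels of 4.48, 3.84, 4.63 and 4.50 in control and 4.86, 4.36, 3.87 and 4.51 in ALA tumours. It had 5.73, 5.47, 4.71 and 5.05 after X-ray and 5.36, 5.94, 5.92 and 6.51 after ALA plus X-ray. ALA plus X-ray tumours lay above all control and all ALA tumours, and X-ray tumours above all control tumours, the closest by 0.08. ALA plus X-ray against control gave 1.57 on the log2 scale (SE 0.28, 2.96-fold, adjusted p = 0.00413), with 0.87, 2.10, 1.29 and 2.01 on slides 1 to 4. Against ALA it was 1.53 (2.89-fold, adjusted p = 0.00416). Both calls held with each of the 16 arrays left out and in 14 of 14 other settings. X-ray against control gave 0.88 (interval 0.27 to 1.49, adjusted p = 0.0941), and ALA plus X-ray against X-ray 0.69 (0.08 to 1.30, adjusted p = 0.170), which passed without ALA plus X-ray replicate 1 (0.88, adjusted p = 0.0447). The dimmer probe (55208013 to 55208072) gave 1.73 against control (adjusted p = 0.0018 in a fit to all probes), 1.60 against ALA (0.00207) and 0.95 for X-ray against control, which passed (0.0457).

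RefSeq promoter windows (GRCm38.p6) were matched for 7 of the 10 genes. The 120 bases before the start of Spp1 are shown beside those of Vtn, because Spp1 was higher on every irradiated array and Vtn lower on every X-ray array than in control tumours. Capitals mark a CCAAT box, read here as ATTGG on the opposite strand, at -46 to -42 from the Spp1 start. The Spp1 window is chr5:104434991-104435110 (+), the earlier of 2 annotated starts, and the Vtn window chr11:78499000-78499119 (+).
Spp1: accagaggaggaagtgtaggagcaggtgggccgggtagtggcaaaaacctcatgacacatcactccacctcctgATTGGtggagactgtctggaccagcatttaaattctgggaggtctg
Vtn: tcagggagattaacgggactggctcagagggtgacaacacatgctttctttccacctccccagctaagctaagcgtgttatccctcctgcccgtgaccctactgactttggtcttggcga
Both strands were searched for TATAAA (in 6.34% of 32851 mouse windows of this length), CCAAT (21.3%), TGANTCA (3.41%) and GGGCGG (26.5%). The Vtn window and the Sparc window held none of these letters. A match is a description of the letters, not a site in use.

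Fn1 and Thbs1 rose against control in the tumours with ALA and X-ray, and both depended on individual arrays. Fibronectin links integrins to collagen and fibrin, and thrombospondin 1 binds CD36 and CD47 and can activate latent TGF-beta. For Fn1, the main probe (chromosome 1, 71637422 to 71639659 in mm9, across an intron, 10 spots with a median SD of 0.061) had levels of -1.19, -0.70, 0.23 and -0.34 in control tumours. It had 0.85, -1.43, 0.23 and 0.18 with ALA, 0.75, 0.98, -0.48 and -0.11 after X-ray, and -0.45, 2.44, 1.54 and 1.51 after ALA plus X-ray. The last 3 of these exceeded every other array, while replicate 1 lay among the controls. The log2 fold change against control was 1.76 (SE 0.59, 3.39-fold, adjusted p = 0.0423), and 0.73, 3.14, 1.32 and 1.85 on the slides. It no longer passed without control replicates 1, 2 or 4, ALA 3 or 4, or ALA plus X-ray 2, 3 or 4 (1.37 to 1.81, adjusted p 0.0504 to 0.125), nor with the replicate block (adjusted p = 0.0652), the muscle level as a covariate (0.0619), no filter on dim probes (0.0727) or only the arrays compared (0.0781). The other 2 Fn1 probes past the filter gave 1.34 (adjusted p = 0.077) and 1.65 (0.0658) in a fit to all probes. X-ray alone gave 0.79 (interval -0.47 to 2.05, adjusted p = 0.468).

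The Thbs1 probe (chromosome 2, 117951775 to 117951834 in mm9) had levels of -2.64, -3.36, -0.83 and -2.36 in control tumours, the second not well above background. With ALA alone it had 0.20, -2.25, -0.22 and -1.24, after X-ray -0.73, -1.61, -1.54 and -1.17, and after ALA plus X-ray -2.52, 0.31, 1.55 and 0.53. ALA plus X-ray replicate 1 again lay at the control level. Against control the log2 fold change was 2.27 (SE 0.76, 4.81-fold, adjusted p = 0.0439), with 0.12, 3.67, 2.37 and 2.90 on the slides. This call was lost without any of control replicates 1, 2 or 4, ALA 4, X-ray 2, 3 or 4, or ALA plus X-ray 2, 3 or 4 (1.74 to 2.27, adjusted p 0.0521 to 0.136), and with median scaling (0.0513), no filter on dim probes (0.074) or only the arrays compared (0.109). Both other Thbs1 probes were well above background on 3 and 1 ALA plus X-ray arrays and on 0 arrays of the other groups. ALA alone gave 1.42, higher on each of the 4 slides (interval -0.22 to 3.06, adjusted p = 0.805). Without ALA plus X-ray replicate 1, Fn1 (1.54, adjusted p = 0.0498) and Thbs1 (2.06, 0.0323) also passed against X-ray alone.

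**Figure D3:**
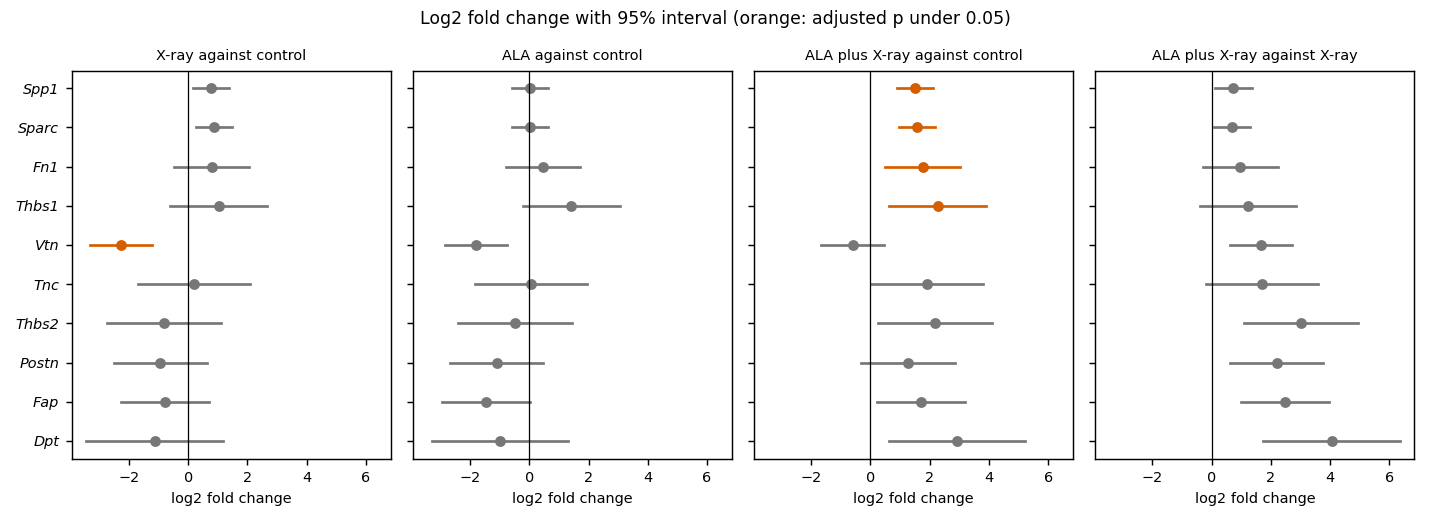
Log2 fold change (points) with its 95% interval (lines) for the 10 genes in 4 comparisons, orange where the adjusted p over all genes was under 0.05. Sparc, Spp1, Fn1 and Thbs1 rose in ALA plus X-ray against control, Vtn fell in X-ray against control, and all 10 points of ALA plus X-ray against X-ray lie above 0 without passing. Points of Fap and Dpt that involve X-ray tumours, and of Fap in ALA against control, rest on a group with 0 arrays well above background, where a lower bound or no fold is given.

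Vtn was the only listed gene called after X-ray alone, where it fell. Its interaction of ALA and X-ray passed too, with levels near background in many ALA and X-ray tumours. Vitronectin is an adhesive glycoprotein of plasma and matrix that binds alpha v integrins and plasminogen activator inhibitor 1, and the liver is its main source. The probe (chromosome 11, 78315393 to 78315665 in mm9, across an intron) is dim. Control levels were -1.87, -1.31, -1.87 and -1.90, and X-ray levels -4.03, -5.23, -3.25 and -3.54, of which only that of replicate 3 was well above background. The processed signals behind them were 58.8 to 112 units in control and 7.98 to 50.4 units in X-ray tumours. No X-ray array reached a control array. The log2 fold change was -2.28 (SE 0.49, adjusted p = 0.0295), or 4.85-fold lower, and -2.16, -3.92, -1.38 and -1.64 on the slides. It missed the threshold without any of the 4 control arrays or X-ray 1, 2 or 4 (-2.43 to -1.87, adjusted p 0.052 to 0.0977), with median scaling and with no filter on dim probes. It was -0.91 with the normexp background, which compresses dim signals.

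With ALA alone Vtn was at -4.18, -2.88, -4.52 and -2.60, below every control tumour, at a difference of -1.81 (interval -2.86 to -0.76, adjusted p = 0.755) and a lower value on each slide; 2.51% of all genes lay wholly below control there. In ALA plus X-ray tumours it was at -2.24, -2.95, -1.38 and -2.79, well above background on all 4 and overlapping the controls. That is -0.60 against control (adjusted p = 0.383) and 1.67 against X-ray alone (3.19-fold, adjusted p = 0.076), with no overlap (2.72% of all genes lay wholly above X-ray) and a higher value on each slide. The interaction of ALA and X-ray, the X-ray effect with ALA minus that without, was 3.48 (SE 0.69, adjusted p = 0.0309). The probe was well above background on 2 of 4 ALA and 1 of 4 X-ray arrays. A fall from the ALA level could thus be measured only in part, which limits this term. Vtn was 1 of 10 genes past the threshold in the interaction, where 1.23% of all genes passed and 0.896% were above 0. The call was kept without control 1, ALA 2, X-ray 1 or ALA plus X-ray 1 and lost without any of the other 12 arrays (3.08 to 3.80, adjusted p 0.0501 to 0.0756). It was also lost with the muscle level as a covariate (3.02, adjusted p = 0.175), the normexp background (1.05, 0.0879), the replicate block (0.062) and no filter on dim probes (0.0589). Hepatocyte markers moved in part with Vtn, but mostly at values near background. The mean of the 3 of 6 that passed the filter spanned -3.61 to -0.37 in the controls, -4.83 to -3.97 with ALA, -5.27 to -4.35 with X-ray and -5.05 to -0.78 with both. Of these 3, 2 were well above background on no ALA array, and 2 on no X-ray array. With these taken at the dimmest signal that passed there, the median log2 fold change in X-ray against control moved from -3.01 to -0.73. In ALA against control it was -0.78 when taken in this way. Apoa1 and Ttr were well above background on no array, and within groups Vtn and the hepatocyte mean had r of -0.0025 over 16 arrays. Their part in the result was not tested.

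Postn, Fap, Dpt, Thbs2 and Tnc, the fibroblast products, were high on the same 3 ALA plus X-ray arrays, and Dpt, Fap, Postn and Thbs2 rose against ALA alone. Windows for 4 of them are shown because their levels moved together. They are chr3:54360987-54361106 (+) for the later of 2 annotated Postn starts, chr4:64046937-64047056 (-) for 1 of 2 Tnc starts, chr17:14694263-14694382 (-) for Thbs2 and chr1:164796543-164796662 (+) for Dpt (GRCm38.p6, RefSeq). Capitals mark TATAAA at -26 to -21 in the Postn window, the only match to the 4 motifs in these windows.
Postn: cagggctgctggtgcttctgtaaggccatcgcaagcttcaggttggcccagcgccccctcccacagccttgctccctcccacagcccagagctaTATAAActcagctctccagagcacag
Tnc: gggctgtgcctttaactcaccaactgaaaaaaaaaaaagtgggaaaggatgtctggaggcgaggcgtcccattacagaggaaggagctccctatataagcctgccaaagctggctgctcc
Thbs2: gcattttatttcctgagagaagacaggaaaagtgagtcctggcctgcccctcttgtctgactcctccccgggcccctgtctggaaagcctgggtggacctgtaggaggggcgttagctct
Dpt: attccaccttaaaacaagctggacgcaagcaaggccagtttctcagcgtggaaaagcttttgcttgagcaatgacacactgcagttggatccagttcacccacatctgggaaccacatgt
The Tnc, Thbs2 and Dpt windows held none of the 4 motifs, which says only that these letters are not in these windows.

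Postn encodes periostin, an integrin ligand that organises collagen. Its probe (chromosome 3, 54194483 to 54194542 in mm9) had levels of 0.22, 1.10, 2.52 and 2.46 in control and 2.05, 1.40, -0.90 and -0.65 in ALA tumours. After X-ray they were 1.16, 0.87, 0.54 and -0.02, and after ALA plus X-ray 1.18, 2.71, 3.47 and 3.98. All 4 ALA plus X-ray values were above all 4 X-ray values, by 0.03 at the closest, and they overlapped control and ALA. Against ALA the log2 fold change was 2.36 (SE 0.74, 5.15-fold, adjusted p = 0.0332), against X-ray 2.20 (interval 0.62 to 3.78, adjusted p = 0.109) and against control 1.26 (0.219). The call against ALA was lost without ALA 3 or 4 or ALA plus X-ray 2, 3 or 4 (1.90 to 2.41, adjusted p 0.0627 to 0.097) and with the replicate block (0.0534). The muscle level as a covariate took it to 1.36 (adjusted p = 0.266), and it was lost too with no filter on dim probes (0.0585) and with only the arrays compared (0.0858). The difference was -0.86, 1.31, 4.38 and 4.64 on slides 1 to 4.

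Thbs2 encodes thrombospondin 2, which binds CD36 and CD47 and restrains blood vessel growth. The probe (chromosome 17, 14804526 to 14805789 in mm9, across an intron) read -3.81, -2.54, -1.35 and -1.63 in control, -0.80, -2.58, -4.19 and -3.74 in ALA and -1.24, -2.96, -3.46 and -4.98 in X-ray tumours. ALA plus X-ray tumours had -1.68, 0.29, -0.66 and 1.48, so 3 of 4 exceeded every other array. Against ALA the log2 fold change was 2.68 (SE 0.90, 6.42-fold, adjusted p = 0.0439), against X-ray 3.02 (8.10-fold, adjusted p = 0.0802) and against control 2.19 (0.0873). The call against ALA was lost without control 2 or 4, ALA 2, 3 or 4, X-ray 2 or 3, or ALA plus X-ray 2, 3 or 4 (2.14 to 2.86, adjusted p 0.0523 to 0.12), and with the replicate block (0.0664). The muscle level as a covariate gave 1.87 (adjusted p = 0.279), and median scaling (0.0507), no filter on dim probes (0.0749) and only the arrays compared (0.0732) ended the call too.

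Fap and Dpt were near background outside the ALA plus X-ray group. FAP is a serine protease on the surface of activated fibroblasts, and dermatopontin is a small matrix protein that binds decorin and collagen. For Fap, the probe (chromosome 2, 62340501 to 62340560 in mm9) was well above background on control replicates 3 and 4 (-2.97 and -2.85) and on ALA plus X-ray replicates 2, 3 and 4 (-1.99, -1.71 and -1.11). It was not on ALA plus X-ray 1 (-4.29), on control 1 and 2 (-4.81 and -5.26), or on any ALA (-6.39 to -4.69) or X-ray array (-5.63 to -4.07). Where no array of a group was well above background, a fold is given as a lower bound against the dimmest signal that passed as well above background there. Fap was at least 2.79-fold higher in ALA plus X-ray than in ALA tumours (adjusted p = 0.00817) and at least 2.69-fold higher than in X-ray tumours, which did not pass (adjusted p = 0.0664). The former call held with each of the 16 arrays left out, in fits that did not rerun the filter. Fap reached that filter only through ALA plus X-ray arrays, so these fits are not independent of it. The call was lost with the normexp background (adjusted p = 0.0872) and with the muscle level as a covariate (0.0552). Against control the log2 fold change was 1.70 (SE 0.69, adjusted p = 0.0852). No interaction is given for Fap, since 0 ALA and 0 X-ray arrays were well above background.

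The Dpt probe (chromosome 1, 166753703 to 166753762 in mm9) was well above background on control 3 and 4 (-3.45 and -3.00), ALA 2 (-3.33) and ALA plus X-ray 2, 3 and 4 (-0.36, -0.59 and 0.54). The other levels were -5.67 and -5.07 in control, -6.33 to -5.62 with ALA alone, -6.38 to -3.78 with X-ray alone and -5.08 in replicate 1 of ALA plus X-ray. The 3 high arrays thus exceeded every other array of the series. ALA 2 and ALA plus X-ray 2 and 4 were also the arrays with high adipocyte markers, whose mean had r of 0.72 with Dpt within groups over 16 arrays, and their part in the result was not tested. Against ALA, Dpt rose 3.91 on the log2 scale (SE 1.08, adjusted p = 0.0204), with 1 of 4 ALA arrays well above background. The call was lost with the muscle level as a covariate (2.22, adjusted p = 0.172), with only the arrays compared (0.0667) and without ALA 3 or 4 or ALA plus X-ray 2, 3 or 4 (3.27 to 3.72, adjusted p 0.0519 to 0.0596). It was at least 5.02-fold higher than in X-ray tumours (adjusted p = 0.0612) and had 2.92 against control (0.0604). Tnc, the tenascin C gene, an anti-adhesive hexamer of wounds, passed in no comparison with all 16 arrays. Its main probe (chromosome 4, 63620819 to 63620864 in mm9) read -3.70, -1.77, -0.27 and -0.07 in control, 0.46, -1.88, -2.40 and -1.82 in ALA, 0.11, -1.64, -2.03 and -1.47 in X-ray, and -1.48, 0.31, 1.16 and 1.85 in ALA plus X-ray tumours. It had 1.91 against control (adjusted p = 0.121), above 0 on each slide, 1.87 against ALA (0.13) and 1.72 against X-ray (0.255). Without ALA plus X-ray replicate 1 it passed against control (2.56, adjusted p = 0.0332) and against ALA (2.52, 0.0369). Of its other probes, 1 was well above background on 1 ALA plus X-ray array, and that to the cDNA AK048765 on 0 arrays.

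ALA plus X-ray against X-ray differed between slide 1 and the others. The median log2 fold change of the 10 genes was 1.70 (1.55 with Fap and Dpt at their bounds), where the median of all genes was -0.08. On slide 1 the median difference was -0.41 and 8 of 10 genes were below 0. On slides 2, 3 and 4 it was 1.93, 2.84 and 2.52 and 0 of 10 were below 0. Vtn and Postn were above 0 on slide 1 too, at 1.79 and 0.03, and for both the groups did not overlap, as for 2.72% of all genes in that direction. Without ALA plus X-ray replicate 1, 8 of 10 genes passed, all but Vtn and Tnc, as did 3135 of all genes (20.4%). Thbs2 had 3.53 (adjusted p = 0.0218) and Postn 2.75 (0.021) in that fit. Dpt (adjusted p = 0.00278) and Fap (0.00657) also passed, with no exact fold because 0 X-ray arrays were well above background. Without X-ray replicate 1, 3 passed, Thbs2 (3.66, adjusted p = 0.0262), Dpt (0.0278) and Fap (0.0462), where 7.1% of all genes passed. Both counts include Fap and Dpt, which reached the filter only through ALA plus X-ray arrays, so they are not independent of the filter. The filter was not rerun when an array was left out. Without any other array 0 passed. ALA plus X-ray replicate 1 was the lowest of its group in fibroblast, macrophage and muscle markers (-0.54, 0.68 and -4.10). X-ray replicate 1, the other array of this slide 1 difference, was the highest of its group in them (0.25, 1.14 and -0.37). The part of these markers in the slide 1 result was not tested.

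**Figure D4:**
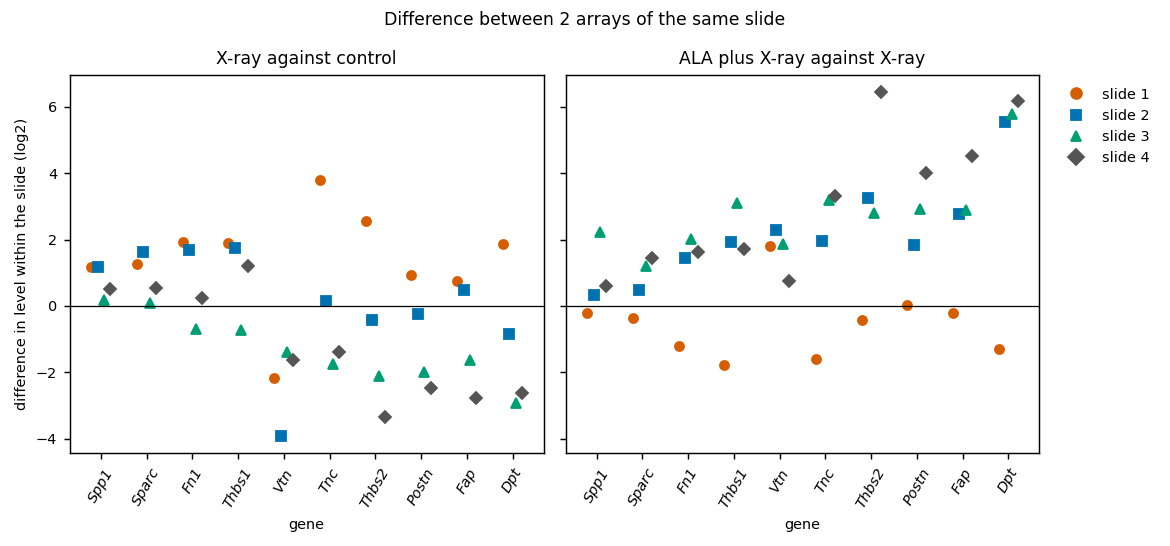
Difference in level (log2) between 2 arrays of the same slide for each gene, X-ray minus control on the left and ALA plus X-ray minus X-ray on the right, with 1 symbol per slide. On the left Vtn is below 0 on all 4 slides and Spp1 and Sparc above 0; on the right slide 1 has 8 of 10 genes below 0 while slides 2 to 4 have all 10 above 0.

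X-ray against control also split by slide for the fibroblast products. The median difference of the 10 genes was 1.57 on slide 1, 0.31 on slide 2, and -1.50 and -1.52 on slides 3 and 4, where control replicates 3 and 4 had the higher fibroblast and muscle markers of their group. Tnc ranged from 3.81 on slide 1 to -1.76 on slide 3, and Thbs2 from 2.57 on slide 1 to -3.36 on slide 4. The fitted values of Postn (-0.94), Thbs2 (-0.83), Tnc (0.20) and Thbs1 (1.03) had adjusted p of 0.461 to 0.924. Fap and Dpt were measured above background on 2 control and 0 X-ray arrays, and no fold is given because its bound was under 1. Of the 10 genes, Spp1, Sparc and Vtn had groups that did not overlap, as did 18.3% of all genes. Against control, ALA plus X-ray arrays lay wholly above for Spp1 and Sparc (8.99% of all genes), and against ALA for Spp1, Sparc and Fap (9.29%).

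All 10 genes varied more between tumours of a group than the median gene did. The pooled SD within groups was 0.424 for Sparc and 0.426 for Spp1, at the 72nd and 73rd percentile of all genes, 0.75 for Vtn (90th percentile) and 0.904 for Fn1. It was between 1.07 and 1.66 for Fap, Postn, Thbs1, Tnc, Thbs2 and Dpt, where the median of all genes was 0.281. After subtraction of the group means, the 45 pairs of genes had Pearson correlations over 16 arrays from -0.50 (Fn1 and Vtn) to 0.89 (Postn and Fap), with a median of 0.52 and 37 above 0. These points share the array, its scaling and the tumour, and the values are descriptions. Postn, Fap, Dpt, Thbs2 and Tnc had 0.66 to 0.89 with each other, Fn1 and Thbs1 had 0.78, and Spp1 had at most 0.53, with Fn1. Vtn was below 0 with 8 of the other 9 genes and had 0.01 with Dpt. The mean fibroblast marker level had r of 0.82 to 0.89 with Sparc, Postn, Tnc, Thbs2, Fap and Dpt, 0.57 with Fn1, 0.61 with Thbs1, 0.23 with Spp1 and -0.24 with Vtn. The macrophage mean had 0.83 with Thbs2, 0.80 with Dpt and 0.50 with Spp1, and the muscle mean 0.78 with Fap and 0.71 with Dpt. The mean of 9 pericyte and smooth muscle markers had 0.80 with Thbs1, 0.73 with Tnc, 0.70 with Postn and -0.02 with Vtn. The melanocyte mean had -0.71 with Thbs2, -0.70 with Fn1, -0.13 with Spp1 and 0.53 with Vtn. With Sparc, Postn, Tnc, Thbs1, Fap and Dpt it had -0.68 to -0.48. The part of these cell types was not tested.

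**Figure D5:**
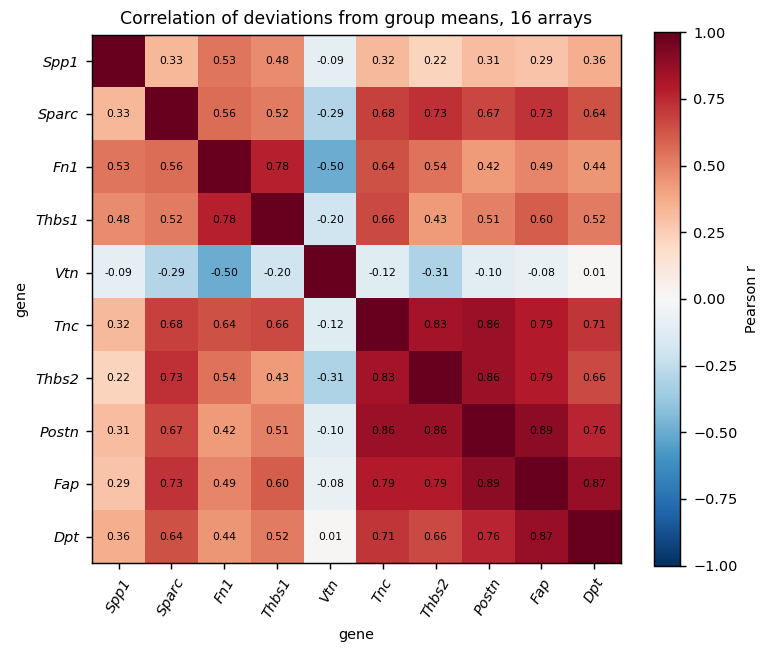
Pearson correlation of the deviations from group means between each pair of the 10 genes over 16 arrays, from blue (-1) to red (1), with the value in each cell. Postn, Fap, Dpt, Thbs2 and Tnc form a block of 0.66 to 0.89, and Vtn has values of -0.50 to 0.01.

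For each listed gene, the 3 genes whose deviations from the group means were most like it over the 16 arrays are named next. They were Col8a1 (r = 0.97), Mfap5 (0.97) and the cross-linking oxidase gene Lox (0.96) for Postn, Col5a2 (0.95), Col8a1 (0.93) and the collagen receptor gene Mrc2 (0.93) for Tnc, and Loxl1 (0.95), Slit3 (0.94) and P3h4 (0.93) for Thbs2. For Dpt they were Tnxb (0.97), Svep1 (0.96) and Ifi207 (0.96), and for Fap Thbd (0.96), Tppp3 (0.94) and Itm2a (0.94). Fn1 was most like Col7a1 (0.89), Lgmn (0.89) and Dusp10 (0.87), and Thbs1 like Slc41a2 (0.94), Ociad2 (0.92) and Mir22hg (0.91). Sparc was most like Cysltr1 (0.91), S100a10 (0.91) and Cmtm3 (0.90), Spp1 like Phlda3, Pqlc3 and Ddr1 (0.91 each), and Vtn like Zfp955a (0.85), Nrtn (0.84) and Rhbdd3 (0.83). These are the highest values over all genes tested, so high values arise by selection.

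Some receptors of these proteins also rose after irradiation. Among 18 tested genes of 22 listed receptors, 2 rose after X-ray alone: Itgav, the alpha v integrin subunit that pairs to bind vitronectin, osteopontin and fibronectin (log2 fold change 0.92, SE 0.15, adjusted p = 0.0167), and its partner Itgb3 (1.09, SE 0.20, adjusted p = 0.0208). After X-ray alone 307 of all 15399 genes rose and 3.37% changed. Itgav and Itgb3 also rose in ALA plus X-ray against control (0.87 and 1.40, adjusted p 0.00355 and 0.00183), where 7 of 18 rose and 2 fell, beside 9.77% of all genes that rose and 24.9% that changed. Against X-ray alone 0 of 18 passed, where 2.07% of all genes changed. Against ALA alone 6 rose and 1 fell, beside 10.7% of all genes that rose and 24.1% that changed, Itgb3 by 1.23 and Itgb5 by 0.79 among the rises. The mean receptor level spanned 0.84 to 0.91 in the controls, 0.92 to 1.07 with ALA, 0.96 to 1.35 with X-ray and 1.17 to 1.41 with both. The median log2 fold change was 0.25 after X-ray and 0.47 after ALA plus X-ray, beside -0.02 and -0.08 for all genes.

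Of 31 other matricellular genes 23 were tested. After X-ray 2 rose, Ecm1 (1.48, adjusted p = 0.0341), which encodes a basement membrane adaptor, and the matrilin gene Matn2 (1.40, 0.0331). Of all 15399 genes, 307 rose after X-ray and 3.37% changed. In ALA plus X-ray tumours 9 rose and 0 fell against control, Ecm1 by 2.79 and Matn2 by 2.07, and 9 rose against ALA, beside 9.77% and 10.7% of all genes that rose. Against X-ray 0 passed, where 2.07% of all genes changed. Their median log2 fold change against control was 0.88 in ALA plus X-ray and 0.05 in X-ray tumours. Among 20 of 22 listed genes of the TGF-beta axis, 0 rose and 1 fell after X-ray, the signal transducer gene Smad2 (-0.49, adjusted p = 0.0323), beside 1.38% of all genes that fell. In ALA plus X-ray tumours 6 rose and 1 fell against control, where 24.9% of all genes changed, with the receptor gene Tgfbr2 at 0.90 and Smad2 at -0.54, and 4 rose and 2 fell against ALA, where 24.1% changed, with the oxidase gene Nox4 at 1.28 and the decoy receptor gene Bambi at -0.65. Their median against control was 0.39 after ALA plus X-ray.

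Of 16 listed genes of the plasminogen system and matrix cross-linking, 14 were tested. Pcolce, an enhancer of procollagen processing, was the only 1 called after X-ray, where it rose (0.74, adjusted p = 0.0143), beside 307 of all 15399 genes that rose. It also rose in ALA plus X-ray tumours against control (0.85, 0.00145). There 5 rose and 0 fell, beside 9.77% of all genes that rose, the transglutaminase gene Tgm2 by 2.30 (adjusted p = 0.00848). Against X-ray alone 1 rose, beside 1.3% of all genes. This was the protease inhibitor gene Serpine2 (2.19, SE 0.52, adjusted p = 0.0462), whose probe rose above background on all 4 ALA plus X-ray arrays and on 1 X-ray array. Against ALA alone 8 of 14 rose, beside 10.7% of all genes. Of the 12 fibroblast markers, 0 passed against X-ray, 1 rose against control (Mmp2, 2.12) and 6 against ALA. Of the 13 macrophage markers 6 rose against X-ray, 4 against control and all 13 against ALA, beside the shares of all genes given above.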

How the data were processed

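Tumour RNA of 16 samples was hybridised to 1-colour Agilent whole-genome mouse arrays, 4 per group. Per the file headers, the deposited scanner files hold intensity values on a linear scale from Agilent Feature Extraction 10.7.3.1 (the submitters' processing notes name 9.5.3.1): the processed signal is background-subtracted and detrended within the array. Flags for background, saturation and outlier spots are the other deposited values, per the file headers. Values of the authors' deposited table are intensity with an equal median (31.9) in every column, so quantile normalised, and served as an alternative. Each array had 43379 spots besides 1639 controls.

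From the log2 processed signal the array's 75th percentile was subtracted, spots of a probe not marked as outliers were averaged, and 39 probes lacking such a spot on some array were dropped. Probe names were updated through RefSeq tables (GRCm38.p6): 26876 by accession, 2894 by symbol and 351 by older symbol, while 11053 kept the file's name. Probe positions come from the array's own mm9 annotation. A probe was kept if at least 4 arrays had it well above background, and the brightest stood for its gene, which gave 15399 genes. Group means were fitted with limma 3.58.1 in R 4.3.3, with moderated variances (degrees of freedom: 12 residual, 2.35 prior). The Benjamini-Hochberg adjustment ran over all genes of each of 6 comparisons, with a threshold of 0.05. Every adjusted p in the text comes from limma. The script was tested on simulated data with known changes. All 10 listed genes are named whatever their values, with the 3 genes most like each and up to 2 called members per list and comparison. The members, the gene lists and the alternatives were chosen with earlier results of these data known, so no list is independent support. Same-numbered arrays, which share a slide, had deviations correlated at -0.46 to 0.54. The median was 0.064, against -0.006 for arrays of different numbers. The main fit has no term for the slide, and the replicate number as a block, which is the slide, was fitted as an alternative.

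Alternatives were each array left out, a normexp background (offset 50), other scalings (quantile, median, spots well above background), the authors' deposited intensity values, a stricter filter (all 16 arrays) or none, all probes as rows, fitting only the 8 arrays of a comparison, the replicate number as a block, array weights, robust moderation with a trend, the muscle marker level as a covariate and a 2-fold minimum.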

Additional observations from a re-analysis of the deposited data

Results flagged for a closer look

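Vtn in control replicate 2 lay apart from its group: its level was -1.31 while the other 3 control tumours had -1.87, -1.87 and -1.90, and the gap was 0.95 of the range, above Dixon's critical value for 4 samples. There were 40 such checks, and chance marks about 1 in 20, so a single mark is what chance can give. Without this array, Vtn in X-ray against control was -2.13 (adjusted p = 0.0977) and the interaction 3.34 (adjusted p = 0.0639).

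The X-ray effect on Vtn differed between tumours with and without ALA by the interaction term, 3.48 on the log2 scale (adjusted p = 0.0309). Its probe was well above background on only 2 of 4 ALA and 1 of 4 X-ray arrays. Without ALA all 4 slides had Vtn lower after X-ray (-2.16, -3.92, -1.38 and -1.64), and with ALA the differences were 1.94, -0.07, 3.14 and -0.19. The interaction was 1.05 (adjusted p = 0.0879) with the normexp background.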

How the results depend on the processing

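The number of listed genes past the threshold moved with the setting. X-ray against control (1 gene) gave 0 with median scaling, with no filter on dim probes and with a filter on all 16 arrays, which leaves 4 listed genes in the fit, and 3 with array weights. ALA plus X-ray against X-ray (0) gave 1 with the normexp background, Dpt, and 3 with array weights. ALA plus X-ray against control (4) gave 2 with no filter, 2 when only the 8 arrays of the comparison were fitted and 7 with array weights. ALA plus X-ray against ALA (6) gave 3 with a filter on all 16 arrays, 3 with only its 8 arrays and 1, Sparc, with the muscle level as a covariate. The interaction (1) gave 0 with the normexp background, no filter, the filter on all 16 arrays, the replicate block and the muscle covariate, 2 with median scaling and 5 with array weights. ALA against control gave 0 in all of these settings. Of the interaction counts, the 2 with median scaling include Fap. The 5 with array weights, and the highest count with 1 array left out, include Fap and Dpt. Both genes had 0 X-ray arrays well above background, so these interaction calls rest on values near background. With 1 array left out the counts ranged from 0 to 1, from 0 to 8, from 2 to 8, from 3 to 9 and from 0 to 4 in these 5 comparisons, in the order given. Over all genes, the call counts ranged in the other settings from 3 to 2963 for X-ray against control, 1 to 2165 for ALA plus X-ray against X-ray, 1294 to 6442 against control, 474 to 6438 against ALA, and 2 to 2023 for the interaction. With 1 array left out they ranged from 1 to 1087, 3 to 3135, 1954 to 5953, 2165 to 5817, and 1 to 1065. The causes of these moves were not tested, beyond the fewer genes or samples that some settings hold.

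The replicate block called 489 genes in X-ray against control and 8 in the interaction. It ended the calls of Fn1 against control (1.76, adjusted p = 0.0652), of Thbs2 (2.68, 0.0664) and Postn (2.36, 0.0534) against ALA, and of Vtn in the interaction (3.48, 0.062), and changed no other call of a listed gene. For 10 of 16 arrays, the mean correlation with arrays of the other groups was highest for those of the same number, 1 of 4 numbers. Of 794 values of listed genes in the other settings, 750 kept their side of the threshold, 27 fell below it, 17 passed it and 0 turned sign among called values. With 1 array left out 880 of 960 kept their side, with 57, 23 and 0 for the rest in the same order. Most values that kept their side were never called, so these totals do not measure how stable the calls were. In the main fit, X-ray and ALA against control called 1 and 0 of 10 genes. ALA plus X-ray called 0 against X-ray, 4 against control and 6 against ALA, and the interaction called 1. Only these called values could fall below the threshold. Uncalled values could change sign, as Tnc in X-ray against control did (-0.27 to 0.51 in the other settings). Spp1 and Sparc against control passed in all 14 other settings (1.44 to 1.7 and 1.5 to 1.73), Fn1 in 10 of 14 and Thbs1 in 10 of 13. Median scaling moved the median of all genes in ALA against control from 0.00 to -0.12. Signals near background limit Fap, Dpt and Vtn, whose fold changes were smallest with the normexp background.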
